A study of Homo sapiens with 6 samples.

Results

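The regions described here lie in 2 windows of chromosome 19 where genes of the KRAB zinc finger family are known to stand side by side, 19p12 and 19q13.4. Members were all clusters of eCLIP reads that lay between 19.8 and 24.6 Mb (19p12, 4.8 Mb long) or between 52 and 59.1 Mb (19q13.4, 7.1 Mb long) on chromosome 19 of GRCh37, chosen by position alone. Of 205520 clusters in 3 IP libraries, 1777 were members. The control IP held 40 of its 5717 clusters in the windows, FLAG-Angel1 replicate 1 held 950 of 102843, and FLAG-Angel1 replicate 2 held 787 of 96960. Only 85 members lay in 19p12, none of them from the control, and 1692 lay in 19q13.4.

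In eCLIP (enhanced cross-linking and immunoprecipitation), UV light links proteins to the RNA they touch, the tagged protein is immunoprecipitated with its RNA fragments (the IP). An input of the same fragment sizes, made without that step, serves as the reference. All 6 libraries, IP and input of 2 FLAG-Angel1 replicates and of 1 control, came from HEK293 cells of the Flp-In T-REx type, an established line from human embryonic kidney that carries a site for the integration of inducible genes. The labels give 5 ng/mL tetracycline for 24 h and 400 mJ/cm2 of UV at 254 nm for every library. The study's methods also mention 1 sample without UV, which no label marks, so that UV exposure rests on the labels. The FLAG-Angel1 cells carried an integrated, tetracycline-inducible FLAG-tagged Angel1 and were chosen by the study for a level near that of the endogenous protein. The control is described in the study's methods as cells with no FLAG fusion protein, although its labels also list FLAG-Angel1 as genotype. Nothing in the labels says whether the replicates came from separate cultures, and 1 control library leaves no spread for the control, so that comparisons between libraries carry no test.

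Angel1 is a homolog of the deadenylase CCR4, an enzyme that removes the poly(A) tail of mRNAs. Deadenylase activity of Angel1 itself is not established, and the study reports that biochemical assays gave no evidence of it. The study cites a cyclic phosphatase activity of Angel1, lower than that of its homolog Angel2. KRAB zinc finger proteins are transcriptional repressors that bind DNA through tandem C2H2 zinc fingers and recruit the corepressor TRIM28 through the KRAB domain, and many of them silence transposable elements. Their genes arose by repeated local duplication, so that neighbours are alike in sequence, and the fingers are encoded back to back within a single long exon. In the RefSeq table of GRCh38.p14, 265 of 562 protein-coding genes with a zinc finger symbol (ZNF, ZFP, ZSCAN, ZIM or ZIK with a number) were on chromosome 19, 18.3% of the 1451 protein-coding genes of that chromosome. They formed 18 runs of at least 5 neighbours with 213 genes in all, the longest being 27 genes from ZNF737 to ZNF681. A gene annotation of GRCh37 was not used here. Clusters were therefore described by position, and which of them lay in zinc finger genes was not tested.

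The lists give a log2 fold of IP over input and a P for each cluster, and both could be solved for whole reads. The library sizes that returned the authors' P were 209788 IP and 3249250 input reads in the control, 3396701 and 722085 in replicate 1, and 2543630 and 2812210 in replicate 2. The P compares the IP and input reads of 1 library pair. Enriched clusters were those with a P under 0.05 and a log2 fold above 0. Over an input value of 1, this took at least 2 IP reads for the control library, 27 for replicate 1 (where 29 also missed the threshold) and 7 for replicate 2. Where the P was 1, only the lowest terms of the read ratio were known, and the reads given are then a minimum. This held for 1 of 40 members in the control, 534 of 950 in replicate 1 and 57 of 787 in replicate 2.

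The windows differed in how densely clusters lay. In 19p12, replicate 1 had 44 clusters and replicate 2 had 41, or 9.17 and 8.54 per Mb. In 19q13.4, there were 906 and 746, or 128 and 105 per Mb. The 19q13.4 window was thus 13.9 times as dense in replicate 1 and 12.3 times as dense in replicate 2. How many clusters a window holds also depends on how much RNA its genes made, which was not measured here. The plus strand carried 61.4% of the 19q13.4 clusters in replicate 1 and 63.5% in replicate 2, against 51.1% and 51.2% on the other autosomes.

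**Figure D1:**
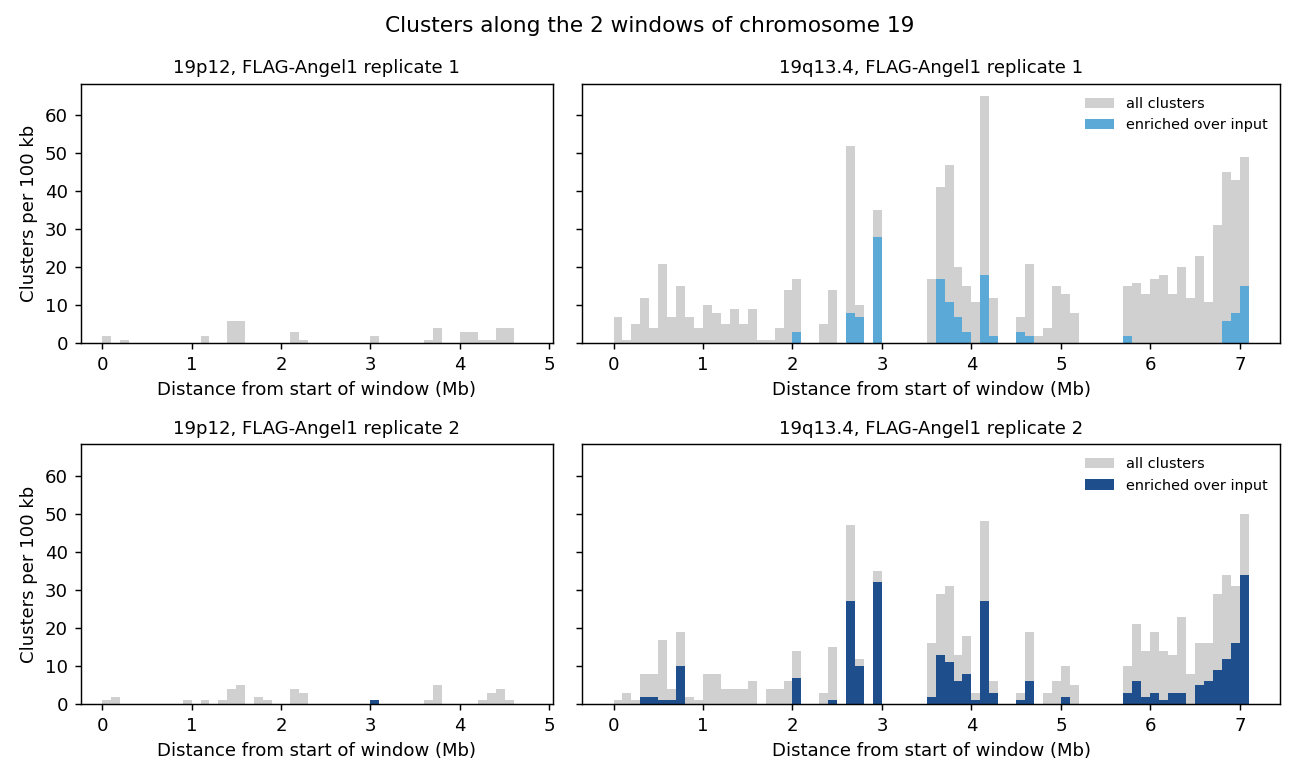
Clusters (grey) and enriched clusters (blue) per 100 kb, by distance from the start of each window in Mb, for both FLAG-Angel1 replicates. Enriched clusters stand in separate groups within 19q13.4, at most 28 per 100 kb in replicate 1 and 34 in replicate 2, whereas 19p12 has 1 enriched cluster, in replicate 2.

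In 19p12, clusters were listed with few reads and hardly any was enriched. None of the 44 clusters of replicate 1 was enriched, where a count of 0 allows a share of up to 6.82%, and 1 of 41 was enriched in replicate 2 (2.44%, Wilson 95% interval 0.432% to 12.6%). Of all clusters, 11.7% were enriched in replicate 1 and 40.7% in replicate 2. Wilson and other intervals here cover counting error only, and PCR duplicates left in the libraries would make them too narrow. The share in 19p12 was below that of each of the 21 other autosomes in both replicates.

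The log2 folds of the 19p12 clusters were listed with few reads. In replicate 1 they ran from -1.73 to 0.94 with a median of -0.23, which is what 4 IP reads against an input of 1 give. The lowest terms of the read ratio held at most 6 IP reads in 37 of 44 clusters. None of the 44 had a P below 1, so that these reads are minimums. In replicate 2 the folds ran from -0.44 to 4.42 with a median of 1.73, which is what 3 reads against 1 give. Of its 41 clusters, 36 were listed with at most 6 IP reads, minimums included. In replicate 1, 3 reads against 1 give -0.65, because its library sizes differ. Few clusters are known to have the IP reads for a call over an input value of 1. There were 0 in replicate 1 and 5 in replicate 2, of which 1 was enriched.

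The enriched 19p12 cluster lay at chr19:22877617-22877706 on the minus strand, was 90 nt long, and held 58 IP reads over an input value of 3 in replicate 2. Its log2 fold was 4.42 with a −log10 P of 14.8. No other 19p12 cluster of that library was listed with more than 9 IP reads. Replicate 1 had a cluster over the same stretch, chr19:22877615-22877704, with at least 17 IP reads over an input value of 12 and a log2 fold of -1.73. The replicates therefore gave opposite directions for the single enriched position of this window, and no control cluster overlapped it.

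In 19q13.4, a minority of clusters was enriched in each replicate, and the share was higher in replicate 2. Replicate 1 had 140 of 906 enriched (15.5%, interval 13.2% to 18.0%), and replicate 2 had 276 of 746 (37.0%, interval 33.6% to 40.5%). At the stricter threshold of 0.001 there were 65 (7.17%, where 4.22% of all clusters passed) and 138 (18.5%, where 17.0% of all clusters passed). The median log2 fold was 0.43 in replicate 1, with quartiles of -0.23 and 1.35, and 1.73 in replicate 2, with quartiles of 1.14 and 2.24. Among enriched clusters it was 2.06 and 2.28. On the other autosomes the medians were 0.50 and 1.73, and 2.06 and 2.47 among enriched clusters.

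Compared with the other autosomes, 19q13.4 stood higher in replicate 1, while the direction in replicate 2 depended on the setting. In replicate 1, the share of enriched clusters was 5.02 percentage points above the 10.4% of the other autosomes (Newcombe 95% interval 2.80 to 7.53), and above 20 of 21 of them taken singly, which ranged from 6.07% on chromosome 18 to 17.1% on chromosome 21. In replicate 2, it was 2.66 points below the 39.7% of the other autosomes (interval -6.06 to 0.883) and above 9 of 21, whose range was 28.3% to 50.7% on the same chromosomes. In replicate 2 the direction turned at the threshold of 0.001 (18.5% against 15.9%, a difference of 2.62 points) and for the share of 100 kb bins with an enriched cluster (59.4% against 55.8%, 3.63 points). Against the rest of chromosome 19, where 24.3% and 51.9% of clusters were enriched, 19q13.4 was lower by 8.86 points in replicate 1 (interval of the difference -11.3 to -6.18) and by 14.9 points in replicate 2 (-18.5 to -11.2). Clusters of a library are not independent, so that these intervals are no test between regions.

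Between the windows, the difference ran the same way in both replicates. The share in 19p12 was 15.5 points below that in 19q13.4 in replicate 1 (interval of the difference -18.0 to -7.13) and 34.6 points below it in replicate 2 (-38.6 to -23.9). Against the other autosomes, 19p12 was 10.4 points lower (-10.6 to -2.40) and 37.2 points lower (-39.2 to -27.1). In 19p12, no cluster of replicate 1 is known to have had the 27 IP reads that can be called over an input value of 1. In replicate 2, 5 of 41 had the 7 reads needed there. How far these differences rest on what could be called was not tested.

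**Figure D2:**
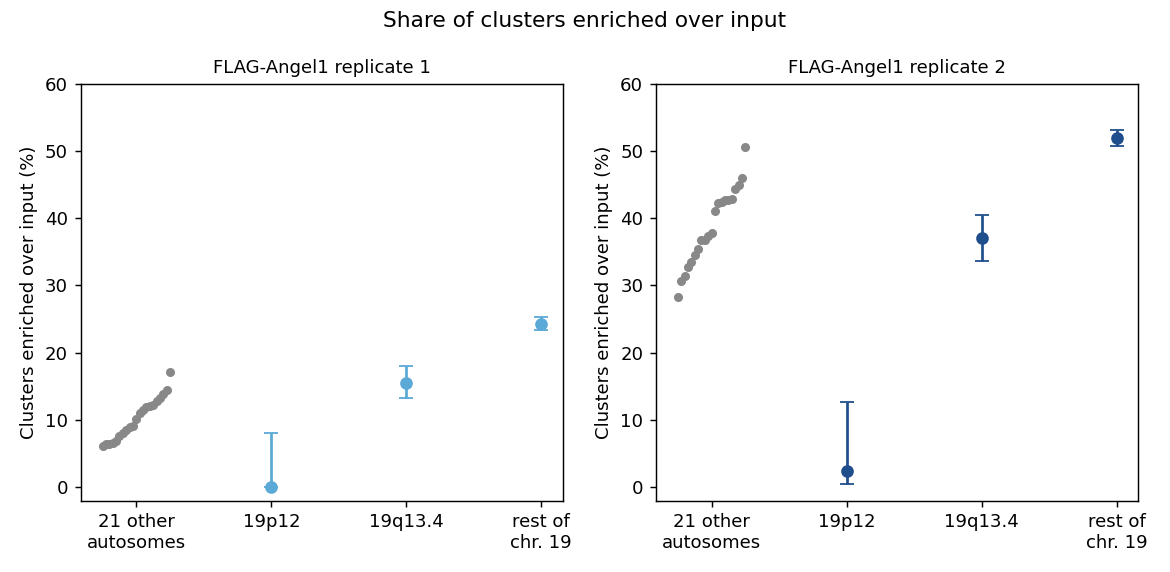
Share of clusters enriched over input in %, for each of the 21 other autosomes (grey points, in order of share), both windows and the rest of chromosome 19, in both FLAG-Angel1 replicates. Bars are Wilson 95% intervals. The 19p12 share lies below every autosome, and 19q13.4 lies at 15.5% and 37.0%, within the range of the autosomes in each replicate.

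Listed read depth (a minimum where P was 1) differed between the windows and moved with these shares. The median cluster of 19q13.4 had 10 IP reads in replicate 1 and 7 in replicate 2, that of 19p12 had 4 in both, and that of the other autosomes had 10 and 8. For 19p12 in replicate 1, every value behind that median is a minimum. Of 19q13.4 clusters, 268 in replicate 1 and 404 in replicate 2 had at least the IP reads (27 and 7) that can be called over an input value of 1. Among these, 52.2% (interval 46.3% to 58.1%) and 68.3% (63.6% to 72.7%) were enriched, beside 45.6% and 70.1% on the other autosomes. These limits were chosen after seeing the data.

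**Figure D3:**
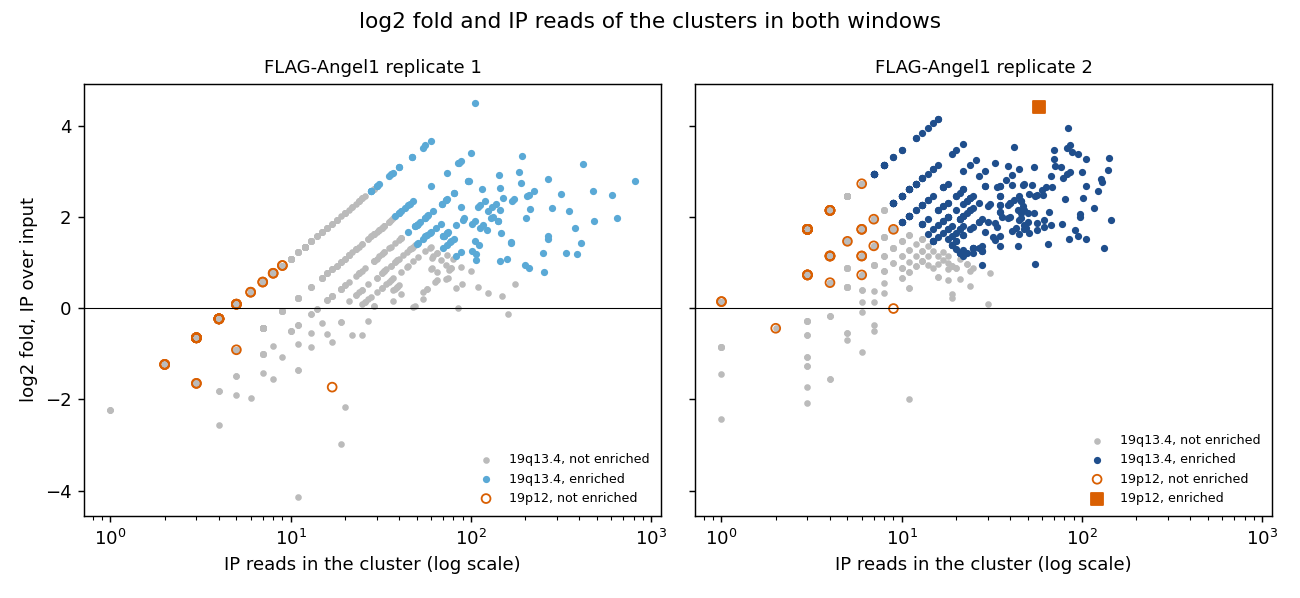
log2 fold of IP over input against IP reads on a log scale, for each cluster of 19q13.4 (grey and blue) and 19p12 (orange), in both FLAG-Angel1 replicates. Lines of points are clusters with the same input value. All 19p12 clusters but 1 are listed at 17 reads or fewer (a minimum where P was 1), and the enriched one stands at 58 reads with a log2 fold of 4.42.

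At matched IP reads (a minimum where P was 1), 19q13.4 lay near the other autosomes from 30 reads on in replicate 1, and below them in part of the range in replicate 2. In replicate 1, clusters of 19q13.4 with 30 to 59 IP reads were enriched in 32.2% of 115 cases (interval 24.3% to 41.2%) against 29.5% on the other autosomes, and those with 60 or more in 77.5% of 129 (69.6% to 83.9%) against 79.5%. In replicate 2, clusters with 7 to 14 reads were enriched in 40.9% of 171 (33.8% to 48.4%) against 51.6%, and those with 15 to 29 in 80.3% of 127 (72.6% to 86.3%) against 91.1%. With 30 to 59 reads 62 of 64 were enriched in that library, and with 60 or more 42 of 42 were. The 19q13.4 share was thus lower than on the other autosomes at 7 to 29 reads in replicate 2, with intervals that did not overlap. This was not particular to the window. On the rest of chromosome 19 the share in replicate 2 was 43.8% at 7 to 14 reads (41.5% to 46.0%) and 86.4% at 15 to 29 (84.6% to 88.0%). In replicate 1 hardly any cluster with so few reads was called anywhere, so that no such gap could have shown there. IP reads also enter the call itself. With 3 to 6 reads no cluster of either window was enriched in either replicate, 33 and 33 in 19p12 and 320 and 315 in 19q13.4, and none was on the other autosomes.

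**Figure D4:**
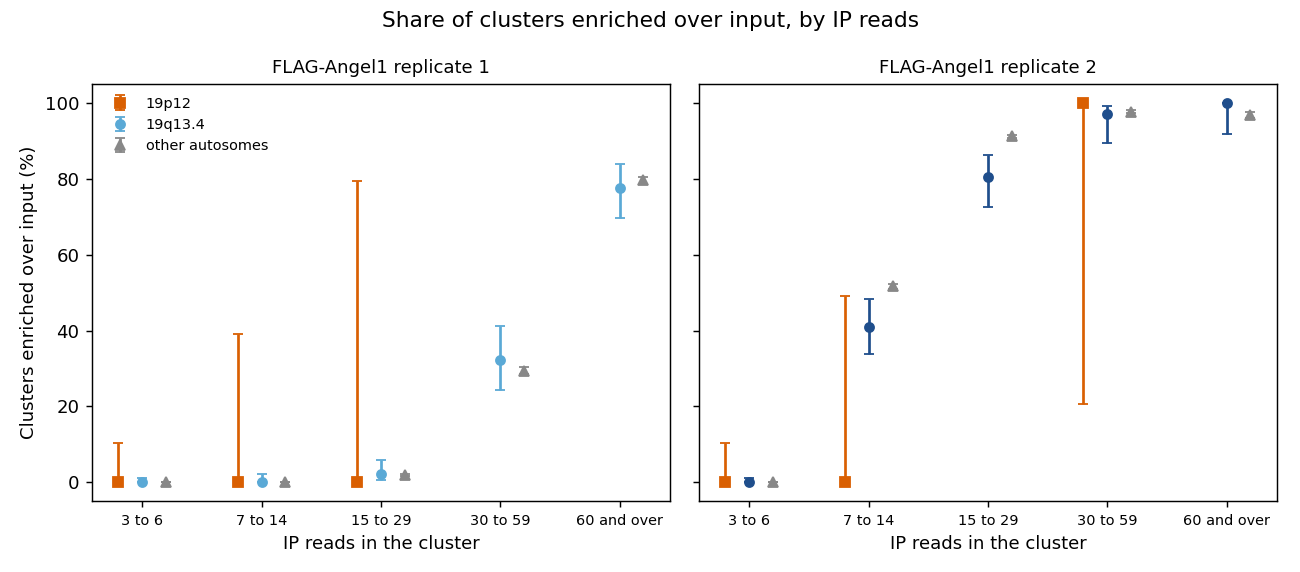
Share of clusters enriched over input in %, by the number of IP reads in the cluster (a minimum where P was 1), for 19p12, 19q13.4 and the other autosomes in both FLAG-Angel1 replicates. Bars are Wilson 95% intervals. In replicate 1 the 19q13.4 and autosome points lie together, near 0 up to 29 reads, and in replicate 2 the 19q13.4 points at 7 to 14 and 15 to 29 reads lie below.

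Summed reads were compared over 2 sets of clusters. Over the clusters with a P below 1, the 19q13.4 window held 26842 IP reads in replicate 1 (416 clusters, 31075 nt, 64.5 reads per cluster) and 11967 in replicate 2 (693 clusters, 41620 nt, 17.3 per cluster). The log2 ratio of summed IP to summed input, each per library size, was 1.56 and 1.91, beside 1.47 and 2.02 on the other autosomes. In 19p12, 37 such clusters of replicate 2 held 210 IP reads over 2460 nt, with a log2 ratio of 1.86, while replicate 1 had no cluster with a P below 1. Requiring a P below 1 removes clusters with no excess over input, so that these ratios lie above 0 by construction. Over all clusters, with the minimum reads where P was 1, the log2 ratio in 19q13.4 was 1.20 in replicate 1 and 1.82 in replicate 2, beside 0.89 and 1.76 on the other autosomes, so that replicate 2 was then above them. In 19p12 it was -0.45 and 1.64. The sums over all clusters were added after seeing the data.

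Enriched clusters were not spread evenly along 19q13.4. In replicate 1, the megabases that start at 52 and 53 Mb held 83 and 66 clusters. None of them was enriched, and none is known to have held 27 IP reads. In replicate 2 the same stretches held 64 and 48 clusters, with 16 and 0 enriched. The megabase from 54 Mb had the most enriched clusters in both libraries, 46 of 133 in replicate 1 (34.6%) and 77 of 126 in replicate 2 (61.1%).

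Farther along, the megabase from 55 Mb had 38 of 140 enriched in replicate 1 and 40 of 107 in replicate 2, and that from 56 Mb had 25 of 137 and 38 of 88. That from 57 Mb had 2 of 65 and 13 of 60. The megabase from 58 Mb was the richest in clusters, 233 and 203, of which 14 and 58 were enriched. The last stretch, from 59 Mb to the end of the window, had 15 of 49 and 34 of 50, the highest share of the window in replicate 2 (68.0%).

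Peaks called in both replicates are made from such enriched clusters and can lie only in stretches that have them. A peak was called reproducible where clusters of both replicates with a P under 0.001 and a log2 fold above 0 overlapped on the same strand, and overlapping clusters were merged. Of 2243 reproducible peaks in all, 27 lay in 19q13.4 and none in 19p12. They comprised 49 clusters of replicate 1 (5.41% of those in the window, where 3.20% of all clusters were in such peaks) and 45 of replicate 2 (6.03%, where 3.54% of all were). The shares were higher on the rest of chromosome 19, at 7.81% and 8.51%, and lower on the other autosomes, at 2.70% and 3.01%. By megabase, 12 of the 27 peaks lay in that from 54 Mb, 3 in that from 55 Mb, 4 in that from 56 Mb, 5 in that from 58 Mb and 3 in the last stretch. On the plus strand there were 22, and 5 on the minus strand.

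The 27 peaks were 6 to 329 nt long, with a median of 111 nt. For each, the values given are those of the cluster with the highest log2 fold in that replicate. IP reads ran from 60 to 810 in replicate 1 (median 143) and from 20 to 145 in replicate 2 (median 68), over inputs of 1 to 35 and of 4 to 42. The median log2 fold was 2.37 in replicate 1 and 2.56 in replicate 2, and 16 of 27 were higher in replicate 2. Each fold is on the scale of its own library. For 25 peaks the exact 95% intervals of the 2 replicates overlapped. The other two, at chr19:54967504-54967546 and chr19:54967322-54967424, stood at 1.44 and 1.43 in replicate 1 and at 3.39 and 3.03 in replicate 2.

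Ranked by the lower log2 fold of the replicates, the highest peak was chr19:54967181-54967321 on the plus strand. Replicate 1 had 191 IP reads over 4 there, a log2 fold of 3.34 (exact 95% interval 1.96 to 5.23), and replicate 2 had 84 over 6, a log2 fold of 3.95 (2.77 to 5.44). It was the single peak of the window where both replicates reached a log2 fold of 3. The control also had an enriched cluster there, with 4 IP reads and a log2 fold of 2.37.

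The next was chr19:59059197-59059272, plus strand, with 100 IP reads over 2 in replicate 1 (log2 fold 3.41, interval 1.52 to 6.48) and 79 over 12 in replicate 2 (2.86, 1.98 to 3.88). No control cluster overlapped it. On the minus strand, chr19:59069640-59069968 was the longest of the peaks and had the most reads in replicate 1, with 810 over 25 there (2.78, 2.21 to 3.42) and 83 over 12 in replicate 2 (2.93, 2.05 to 3.94). A control cluster at this peak was enriched with 4 IP reads and a log2 fold of 1.71.

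The fourth was chr19:54969131-54969180, plus strand, with 97 reads over 3 (2.78, 1.19 to 5.08) and 67 over 10 (2.89, 1.92 to 4.01), and no control cluster. The fifth was chr19:58904343-58904553, plus strand, with 106 over 1 in replicate 1 (4.49, 1.98 to 9.81) and 48 over 8 in replicate 2 (2.73, 1.64 to 4.02). The fold of replicate 1 there was the highest among the 27 peaks, rested on an input value of 1 and had a wide interval. An enriched control cluster at this peak had 4 IP reads over an input value of 5 and a log2 fold of 3.63. As a number this lay between the values of both replicates, but each fold is on the scale of its own library.

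**Figure D5:**
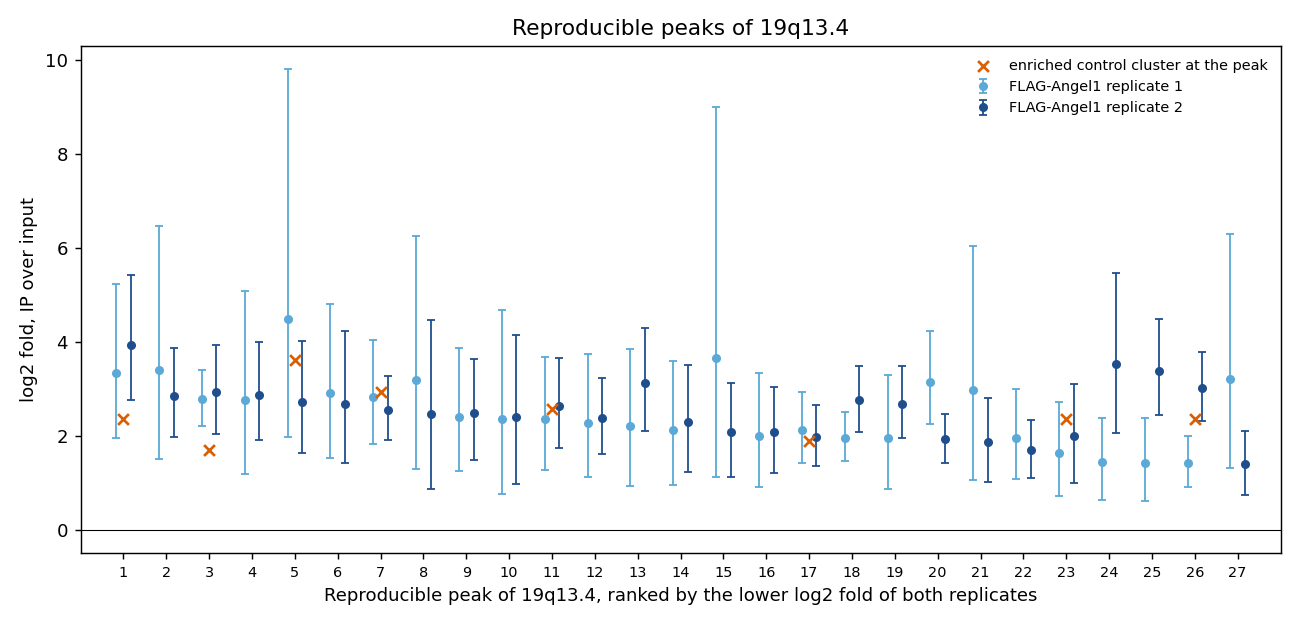
log2 fold of IP over input at the 27 reproducible peaks of 19q13.4, ranked by the lower value of both FLAG-Angel1 replicates, with exact 95% intervals as bars. Crosses are the highest log2 fold of an enriched control cluster at the peak, present at 8 peaks. All intervals lie above 0 by construction, because peaks were chosen for a P under 0.001 and a log2 fold above 0 in both replicates. Those of replicate 1 are wide where its input value was 1 or 2.

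The reproducible peaks came from few places. Clusters of both replicates within 5 kb of each other on 1 strand were joined into loci, 253 in 19q13.4 and 44 in 19p12. Enriched clusters lay in 24 loci of 19q13.4 in replicate 1 and in 71 in replicate 2, with 23 loci in common. The 3 loci with the most enriched clusters, chosen for each replicate by itself, held 38.6% of those of replicate 1 and 27.5% of those of replicate 2. Reproducible peaks lay in 10 loci, of which 3 held 17 of 27 peaks.

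The richest locus, chr19:54962555-54972786 on the plus strand, spanned 10232 nt and held 10 reproducible peaks. Of its clusters, 28 of 31 were enriched in replicate 1 and 32 of 32 in replicate 2, with median log2 folds of 1.84 and 2.94. The second, chr19:58898635-58906123 on the plus strand, held 5 peaks over 7489 nt, with 13 of 17 clusters enriched in replicate 1 and 13 of 13 in replicate 2 (medians 2.17 and 2.06). The third, chr19:59055822-59061981, also on the plus strand, held 2 peaks over 6160 nt, with 8 of 14 and 24 of 24 clusters enriched (medians 1.28 and 2.25). It was taken ahead of 3 other loci with 2 peaks because it had the most enriched clusters in replicate 2.

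The 3 loci with the most enriched clusters were also left out, chosen for each replicate by itself. They differed in part from the 3 loci described above. The share of enriched 19q13.4 clusters was then 10.6% in replicate 1, a difference of 0.17 points from the other autosomes. In replicate 2 it was 30.4%, a difference of -9.26 points. These loci were picked, after seeing the data, for their enriched clusters and were left out of 19q13.4 alone, so that its share had to fall. Outside the 10 loci with reproducible peaks, the locus with the most enriched clusters in replicate 2 was chr19:54641500-54657454 on the plus strand, where 5 of 21 clusters were enriched in replicate 1 and 15 of 22 in replicate 2.

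Some loci differed between the replicates in how many clusters were enriched, and why was not tested. At chr19:58595642-58609590 on the minus strand, each replicate had 18 clusters, of which 0 were enriched in replicate 1 and 9 in replicate 2, with median log2 folds of 0.85 and 1.49. At chr19:52714516-52729462 on the plus strand, 0 of 12 and 7 of 14 were enriched, with medians of -0.14 and 1.43. The summed IP reads of these loci were at least 357 and 142 in replicate 1 and at least 205 and 214 in replicate 2.

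In the control IP, 38 of the 40 clusters of 19q13.4 were enriched (95%, interval 83.5% to 98.6%), where 91.8% of all control clusters and 93.6% of those on the other autosomes were. They held 3 to 15 IP reads, 24 of them at most 4, and formed 17 loci. At the threshold of 0.001, 17 passed (42.5%, where 64.5% of all control clusters passed), against 66.5% on the other autosomes. The median log2 fold was 3.58, against 5.37 on the other autosomes. Of the 40, 16 touched a neighbouring cluster end to end and carried the same fold and P as it, and whether they list the same reads was not tested.

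The control clusters with the highest folds lay away from the FLAG-Angel1 peaks. The top pair, chr19:56168823-56168868 and chr19:56168869-56168916 on the plus strand, abutted each other and had 15 IP reads over 2 each, with a log2 fold of 6.86. The third, chr19:56832841-56832849 on the minus strand, had 6 over 1 (6.54) and shared these values with the cluster that abutted it. No FLAG-Angel1 cluster of either replicate overlapped these. Of the 40 control clusters, 21 overlapped no FLAG-Angel1 cluster. Those overlapping replicate 1 made up 37.5% and those overlapping replicate 2 made up 42.5%, beside 38.5% and 38.1% on the other autosomes.

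Conversely, few FLAG-Angel1 clusters lay over an enriched control cluster, but more of the reproducible ones did. Among enriched 19q13.4 clusters, 15 of 140 in replicate 1 (10.7%) and 14 of 276 in replicate 2 (5.07%) overlapped an enriched control cluster, beside 7.76% and 3.64% on the other autosomes and 8.60% and 5.76% on the rest of chromosome 19. Among the 27 reproducible peaks it was 8 (29.6%, interval 15.9% to 48.5%), beside 16.5% on the other autosomes and 19.3% on the rest of chromosome 19. These peaks are not independent. The control cluster chr19:54967312-54967350 marks both chr19:54967181-54967321 and chr19:54967322-54967424, and several other marked peaks lie in the locus chr19:58898635-58906123. At the peaks with a control cluster, the control had 4 to 7 IP reads. For the other 18 peaks no control cluster was listed, in a library of 209788 IP reads.

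The replicates shared fewer clusters in 19p12 than in 19q13.4. In 19p12, 12 of 44 clusters of replicate 1 (27.3%, interval 16.3% to 41.8%) overlapped a cluster of replicate 2, and 12 of 41 the other way (29.3%, 17.6% to 44.5%). In 19q13.4, 415 of 906 (45.8%, 42.6% to 49.1%) and 398 of 746 (53.4%, 49.8% to 56.9%) did, beside 52.2% and 54.2% on the other autosomes. All 12 overlapping 19p12 clusters had a higher log2 fold in replicate 2, and 73.7% of those in 19q13.4 did, beside 82.0% on the other autosomes and 73.6% on the rest of chromosome 19. With the library sizes, 3 IP reads over an input value of 1 give -0.65 in replicate 1 and 1.73 in replicate 2. Folds of the replicates are therefore not on a common scale, and the direction of these pairs was not tested.

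Among enriched 19q13.4 clusters, 100 of 140 in replicate 1 (71.4%) overlapped an enriched cluster of replicate 2, and 89 of 276 in replicate 2 (32.2%) overlapped one of replicate 1. On the other autosomes these shares were 76.6% and 22.0%, and on the rest of chromosome 19 they were 76.7% and 38.7%. Across the 415 overlapping clusters of 19q13.4, Pearson's r of the log2 folds was 0.27 and Spearman's rho 0.22. This is a description across clusters, which share libraries and depth, and on the other autosomes the values over 47797 clusters were 0.22 and 0.18.

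C2H2 zinc fingers are encoded by tandem units of 28 codons, or 84 nt, so that binding at like positions of successive fingers would space clusters by multiples of 84 nt. Start-to-start distances of 40 to 1000 nt on the same strand within 3 nt of such a multiple were counted, which covers 8.01% of all distances in that range. In 19q13.4, 68 of 925 distances in replicate 1 (7.35%, interval 5.84% to 9.22%) and 60 of 682 in replicate 2 (8.80%, 6.90% to 11.2%) were near a multiple. No excess was detectable in either replicate. In 19p12, 0 of 9 and 0 of 7 distances were, too few for a share. Which of these clusters lay in zinc finger exons was not tested.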

How the data were processed

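The authors deposited, for each of the 3 IP libraries, a list of read clusters with a −log10 P (at most 400) and a log2 fold of IP over size-matched input, made with the Yeo laboratory's eCLIP pipeline on GRCh37. The submitters' processing notes name cutadapt, STAR, SAMtools and UMI-tools; versions are not given in the sources used here. Replicates were not pooled. Inputs entered only through these values, and a P of 1 stood beside every log2 fold not above 0.

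Whole reads were solved from fold and P. The most frequent fold was taken as 3 IP reads against an input of 1, which may stand for 0 reads. P was modelled by Fisher's exact test where an observed or expected count was under 5, and otherwise by the chi-square test with Yates' correction. Both returned the P of at least 99.4% of clusters with a P below 1 in each library, and no member was left unsolved. In simulated clusters with other library sizes, the reads of 99.97% of clusters with a P below 1 were recovered for replicate 1 and of 100% for the others, and so were all 1000 planted overlaps among 5000 clusters.

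Coordinates count from 1. Members and lists were chosen with earlier results of these data known. Named were, by rule, the 5 reproducible peaks with the highest lower log2 fold, the 3 loci with the most reproducible peaks and the 3 control clusters with the highest log2 fold. Further loci were named after their values were seen. Python 3.11.15, numpy 2.4.6, scipy 1.17.1, pandas 2.3.3 and matplotlib 3.10.9 were used. Alternatives covered thresholds, overlap, strand, window edges, abutting clusters, bins, the control and single replicates.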

Additional observations from a re-analysis of the deposited data

How the results depend on the processing

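Of 97 alternative values, 53 stayed within the error of the value reported, 39 moved beyond it and 5 reversed. Differences are in percentage points from the other autosomes. With a P threshold of 0.001 they were -13.4 for 19p12 in replicate 2, and for 19q13.4 -24.0 in the control and 2.62 in replicate 2, both reversed. With log2 folds of 3 or more required too, they were -0.62 and -3.85 for 19p12 in replicates 1 and 2, and -25.1 (control, reversed) and 0.48 (replicate 1) for 19q13.4. By 100 kb bins they were -20.8 and -50.5 for 19p12, and 3.63 for 19q13.4 in replicate 2, reversed. Against the rest of chromosome 19 they were -24.3 and -49.5 for 19p12, and 9.29 (control), -8.86 (replicate 1, reversed) and -14.9 (replicate 2) for 19q13.4. Chosen after seeing the data, clusters with enough IP reads gave -50.1 for 19p12 in replicate 2 (5 clusters). Leaving out the 3 loci of most enriched clusters, also chosen after seeing the data and for each replicate by itself, gave -39.7 there. For 19q13.4 it gave 0.17 and -9.26. The values without these loci are lower by construction. The cause of these changes was not tested.

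Reproducible peaks of 19q13.4 numbered 66 at a P threshold of 0.05, 1 where both log2 folds were 3 or more, and 10 without the 3 loci of most peaks (chosen after seeing the data). With 1 replicate left out, clusters past 0.001 numbered 65 to 138 in 19q13.4 and 0 to 1 in 19p12. Medians of log2 folds over enriched clusters only were 4.42 for 19p12 in replicate 2, and 2.06 and 2.28 for 19q13.4 in replicates 1 and 2, and that of control clusters at least 50 nt wide was 2.37. Without the 5 densest 100 kb bins, clusters per Mb were 4.65 and 4.42 in 19p12 and 2.27 for the control in 19q13.4. With reciprocal overlap of 50%, shared clusters fell to 11.4% and 12.2% in 19p12 and 24.3% and 29.5% in 19q13.4. Among enriched clusters only, they were 0% of 1 cluster of 19p12 in replicate 2, and 71.4% and 32.2% in 19q13.4. Log2 ratios of summed reads over enriched clusters only were 4.42 for 19p12 in replicate 2, and 1.96 and 2.20 for 19q13.4, and over all clusters (chosen after seeing the data) 1.20 and 1.82 for 19q13.4. No alternative read the 84 nt spacing differently. No paired analysis was possible because IP and input of a replicate enter only as the authors' ratio and the control has 1 library. With the library sizes, a call over an input value of 1 took at least 27 IP reads in replicate 1 and 7 in replicate 2. How far this shaped the results was not tested.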
